A study of Mus musculus with 3072 samples.

Results

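Microglia from the cortex of amyloid-forming mice that lacked Apoe were compared with cortical microglia of amyloid-forming mice that kept the gene. Every cell of both groups in the deposited count table was used, 645 of 1878 cells in all. The APP/PS1-ApoeKO group held 334 cells of male mice aged 18 months that carried the APPswe/PS1dE9 transgenes and were homozygous for the Apoe null allele. The APP/PS1 group held 311 cells of male mice aged 17 months with the same transgenes and intact Apoe. Per the labels, sorting kept single live cells that stained for CD11b and not for DAPI, and cDNA came from a modification of SmartSeq2, which reads whole transcripts and carries no molecular identifiers. Each group came from 2 sequencing lanes: lane 33 (165 cells) and lane 34 (169 cells) for the knockout, lane 41 (153 cells) and lane 42 (158 cells) for APP/PS1. The labels name no animals, so a group is 1 sample, no p-value was computed, and genotype, lane and the 1-month difference in age cannot be told apart. For comparison, the same values are given for APP/PS1-ApoeKO (321 cells, 18 months) and APP/PS1 (273 cells, 17 months) hippocampus, and for the cortex of C57BL/6-ApoeKO (313 cells) and C57BL/6 (326 cells) males at 18 months, which carry no amyloid transgenes. The null allele was present in every cell type of these mice, so the comparison is not of a loss in microglia alone. The transgenes are, as background, driven by a prion protein promoter that is active mainly in neurons.

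Apolipoprotein E carries cholesterol and other lipids between cells in the brain. It is made mainly by astrocytes, and microglia raise it strongly when they enter the activated state found around amyloid plaques. In that state, genes such as Cst7, Clec7a, Itgax and Axl come up, genes of the resting (homeostatic) state such as P2ry12 and Tmem119 go down, and the lipid-sensing receptor Trem2, for which ApoE is a ligand, is needed for the full change. The transporters Abca1 and Abcg1 move cholesterol out of cells to acceptors such as ApoE.

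The cells held 117409 to 777556 reads each in the knockout (median 429392, 144790529 in all) and 190664 to 981052 in APP/PS1 (median 615541, 188282466 in all). Median genes per cell were 2229.5 and 2218. Levels are given as RPM, reads of a gene scaled to the same total of all genes (reads per 1e+06), from the summed cells of a group or lane. The median share of reads from ribosomal RNA was 14.4% in lane 33, 8.02% in lane 34, 14.8% in lane 41 and 12.8% in lane 42, and its part in the results was not tested. All 8 microglial identity markers were read in both groups, and their summed level was 41654 to 46136 RPM in the 4 lanes. The 10 T or NK cell markers summed to 3.80 RPM at most in any lane. Of the 10 neutrophil markers 9, and of the 7 B cell markers 5, were below 1 RPM in both groups, including S100a8, Ly6g and Igkc, while Csf3r (515 against 604 RPM) and Ighm (592 against 424 RPM) led those lists. The monocyte marker Ccr2 stood at 7.37 and 27.5 RPM in lanes 33 and 34 and 1.94 and 6.24 RPM in lanes 41 and 42, and the other monocyte markers at 3.499 RPM or less in every lane. Fold differences below are ratios of RPM with exact 95% intervals in brackets, which cover counting error only. They are too narrow for differences between animals, the more so as PCR copies were not removed by molecular identifiers. Intervals of shares of cells treat the cells of 1 sample as independent, so they leave out differences between animals too.

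Apoe itself, on chromosome 7 (19696109 to 19699188 on GRCm38, minus strand), was read 10 times in 5 knockout cells. Its level was 0.0714 and 0.0669 RPM in the 2 knockout lanes and 10557 and 15952 RPM in the 2 APP/PS1 lanes. With each cell thinned to 100000 reads, Apoe was read in 0.599% of knockout cells (0.0726 to 2.15) and 88.7% of APP/PS1 cells (84.7 to 92.03). C57BL/6 cortex, without amyloid, had 485 RPM of Apoe, and the level in APP/PS1 was 27.6-fold higher than that. The labels of both knockout lanes therefore matched the targeted gene. App differed by less than 1.5-fold between the groups (98.9 against 80.5 RPM), but whether reads of its transgene were counted under this name was not stated in the labels used.

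Beyond Apoe, the knockout cells had more genes at higher than at lower levels. Among 6127 genes with at least 20 RPM and a read in at least 10% of the cells of 1 group, 394 (6.43%) were higher in the knockout sum by 2-fold or more and 122 (1.99%) lower by as much. A stricter count asked that each of the 4 pairs of a knockout lane and an APP/PS1 lane be at least 2-fold apart in 1 direction. It held for 132 higher genes (2.15%) and 54 lower genes (0.881%). The 2 lanes of 1 group were themselves at least 2-fold apart for 6.71% (lanes 33 and 34) and 7.34% (lanes 41 and 42) of these genes, against 12.3% to 14.7% for a knockout lane against an APP/PS1 lane. The excess of higher genes depended on the scaling: 76.4% of the 2-fold differences were higher with total reads and 50.6% (207 higher, 202 lower) with edgeR's TMM factors. TMM moved the median log2 ratio of all 12729 genes of at least 1 RPM from 0.19 to -0.0088, and list medians are therefore set beside the 0.19 of all genes. With TMM, 88 of the 132 higher genes and all 54 lower genes were still at least 2-fold apart in the 4 lane pairs.

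**Figure D1:**
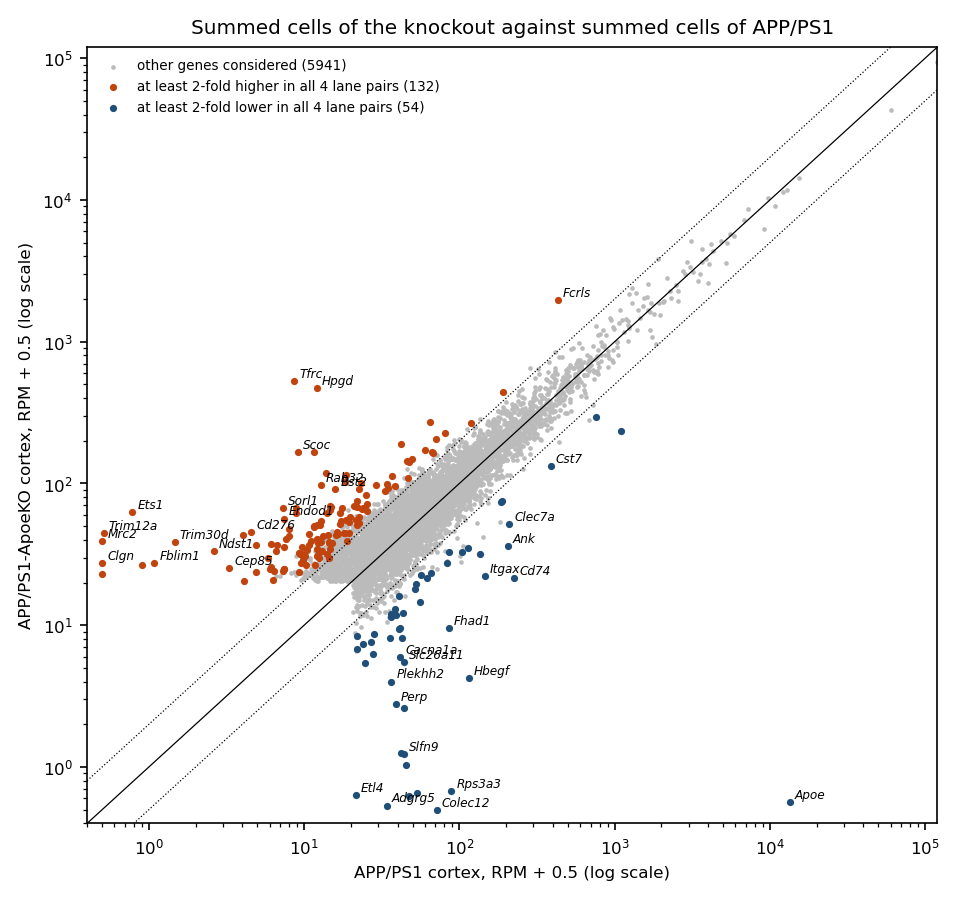
Level of the 6127 genes in the summed knockout cells (vertical axis) against the summed APP/PS1 cells (horizontal axis), both in RPM plus 0.5 on log scales, with a solid line of equality and dotted lines at 2-fold. The 132 higher (orange) and 54 lower (blue) genes of the 4 lane pairs are coloured; Apoe lies alone at the lower right, and Tfrc, Hpgd and Fcrls lie far above the line at high levels.

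The activated genes were, as a group, lower in the knockout. Of the 28 genes of the activated list with at least 1 RPM, 10 were at least 2-fold lower and 1 at least 2-fold higher, that is 35.7% and 3.57% against 7.57% (lower) and 16.6% (higher) of all genes of at least 1 RPM. Both knockout lanes lay below both APP/PS1 lanes for 20 of the 28 and above them for 1, where 14.5% (below) and 30.2% (above) of all such genes did so. The median log2 ratio was -0.60, between -0.88 and -0.53 in the 4 lane pairs, which is 0.78 below that of all genes. The list was chosen with earlier results of these data known, so its direction is a description and not an independent finding.

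Itgax, which encodes the CD11c integrin subunit of plaque-associated microglia, stood at 30.7 and 13.03 RPM in lanes 33 and 34 and at 221 and 77.9 RPM in lanes 41 and 42, and was 6.74-fold lower (6.49 to 6.99) in the knockout. The lanes of the 2 groups did not overlap, although lane 41 was well above lane 42. Clec7a, the receptor Dectin-1, had 46.1 and 55.4 RPM and 246 and 174 RPM in the same order and was 4.08-fold lower (3.98 to 4.18). Ank, a pyrophosphate transporter, had 43.5 and 28.02 RPM against 235 and 177 RPM and was 5.75-fold lower (5.59 to 5.92). Cst7, which encodes the protease inhibitor cystatin F, had 158 and 109 RPM against 401 and 375 RPM and was 2.92-fold lower (2.87 to 2.96). These 4 genes were the measured members of the list that were both read in at least 10% of cells and at least 2-fold lower in all 4 lane pairs.

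Axl, a receptor for phosphatidylserine-bound ligands, had 44.8 and 37.8 RPM against 202 and 87.05 RPM, 3.43-fold lower (3.34 to 3.53) over the sums with no overlap of lanes. Lyz2, lysozyme, had 853 and 1059 RPM against 1646 and 2047 RPM and was 1.94-fold lower. Spp1, Igf1, Fabp5 and Ch25h of the list were read in few cells of either group. Spp1 (osteopontin) had no read in any knockout cell, so that up to 0.898% of cells with a read is allowed for, and 22.9 and 16.96 RPM in lanes 41 and 42; it was at least 954-fold lower. The growth factor Igf1 had 17.8 and 2.47 RPM against 29.1 and 39.9 RPM, and the lipid-binding Fabp5 0.928 and 0.281 RPM against 11.1 and 25.4 RPM. Ch25h, which makes 25-hydroxycholesterol, had 2.44 and 0 RPM against 17.2 and 21.2 RPM. For each of these 4 genes the highest knockout lane was below the lowest APP/PS1 lane. They rest on few cells. Leaving out the cell with the most reads of the gene in each group moved the log2 ratio of Igf1 from -1.77 to -2.56. That of Ch25h moved from -3.56 to -4.76, that of Fabp5 from -4.13 to -4.70 and that of Spp1 from -5.34 to -4.63.

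The abundant genes of the activated state differed by less. Trem2 had 2689 and 2697 RPM against 3159 and 3695 RPM (1.28-fold lower), its signalling partner Tyrobp 2264 and 2298 RPM against 2358 and 2714 RPM, the tetraspanin Cd9 1782 and 2036 RPM against 2016 and 2100.1 RPM, and the ferritin Fth1 1814 and 2066 RPM against 1936 and 2229 RPM. Trem2 lanes did not overlap, whereas those of Cd9 and Fth1 did. The 1 gene at least 2-fold higher was Cybb, an NADPH oxidase subunit (24.4 and 9.05 RPM against 0.3602 and 9.68 RPM). Its log2 ratio of 1.55 fell to 0.21, within 2-fold, without knockout plate 1 and was 3.42 without APP/PS1 plate 3. Plates, here and below, are those of the well titles, and the labels give another plate number for part of the wells. Lipoprotein lipase Lpl had 119 and 16.3 RPM against 76.1 and 49.3 RPM, Lgals3 (galectin-3) 56.5 and 0 RPM against 17.2 and 14.4 RPM, and Lilrb4a 49.9 and 12.7 RPM against 24.1 and 26.7 RPM: in each, lane 33 was highest and lane 34 lowest of the 4. Without the single richest cell of each group their log2 ratios were -1.27, -2.32 and -0.41, all below 0. Cd22, a sialic acid-binding receptor, was above in both knockout lanes (60.2 and 60.2 RPM against 42.8 and 25.96 RPM). Gpnmb, of the same list, was at 0.00691 and 0.00531 RPM and was not measured.

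**Figure D2:**
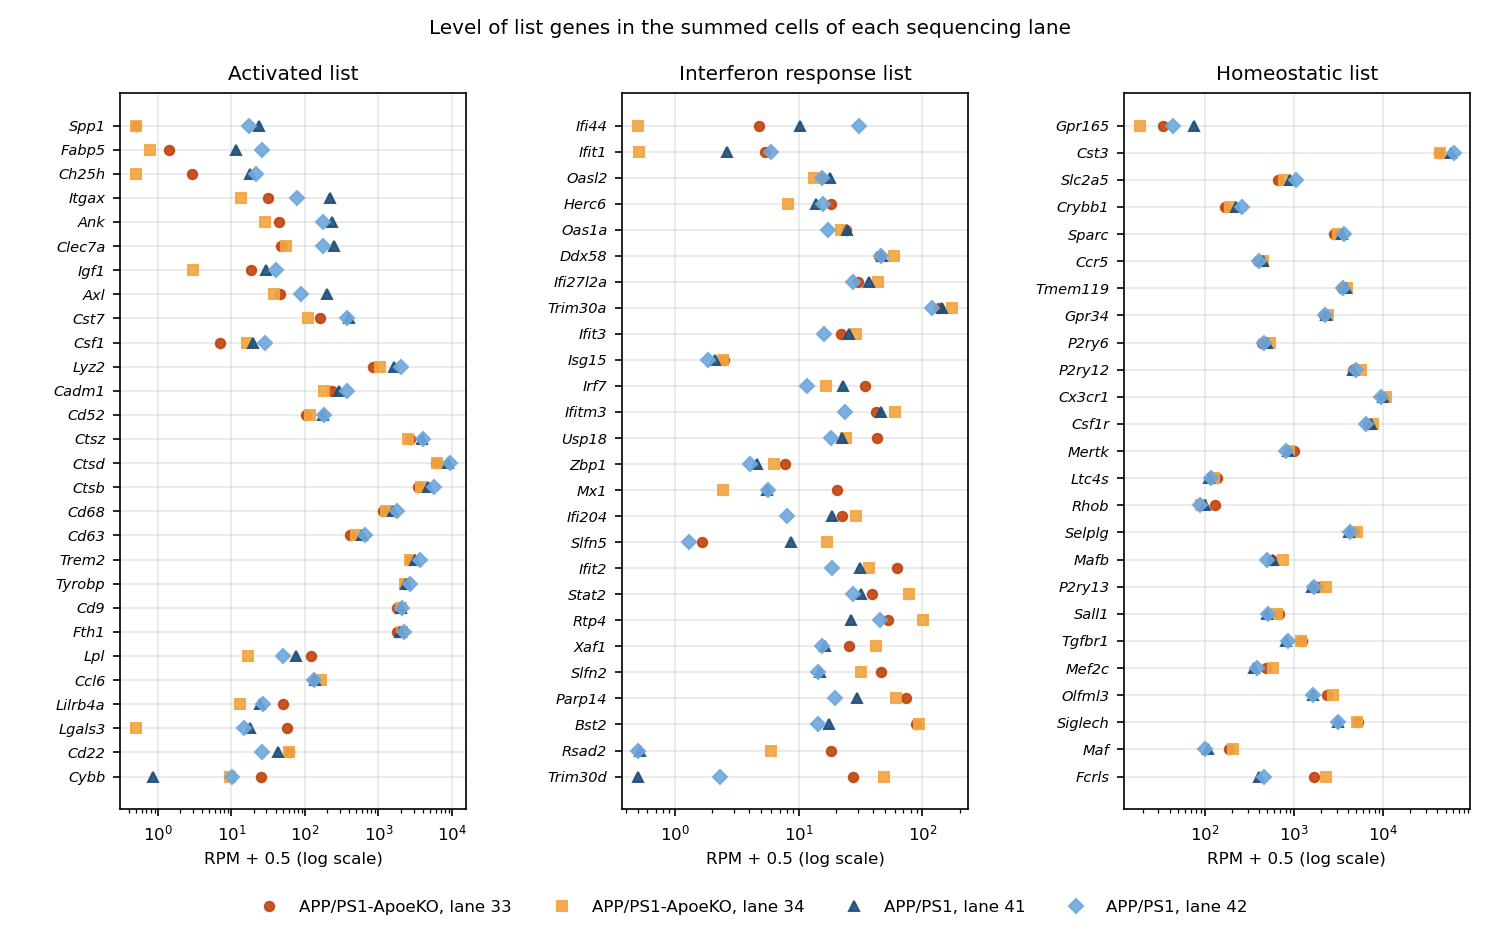
RPM plus 0.5 (horizontal, log scale) of each measured gene of the activated (28 genes shown), interferon response (26) and homeostatic (25) lists, sorted by log2 ratio, with 1 point per lane: circles and squares for knockout lanes 33 and 34, triangles and diamonds for APP/PS1 lanes 41 and 42. The knockout points lie to the left for 20 of the 28 activated genes and to the right for 13 of the 26 interferon genes shown. Of the 25 homeostatic genes shown they lie to the right for 11 and to the left for 5, and Fcrls is far apart.

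The lower level of these genes went with fewer cells that read them. Thinned to the same 100000 reads a cell, Itgax was read in 7.19% of knockout cells (4.66 to 10.5) and 23.8% of APP/PS1 cells (19.2 to 28.9), with 9.697% and 4.73% in lanes 33 and 34 and 28.8% and 18.99% in lanes 41 and 42. The level of Itgax, 6.74-fold lower, differed by more than this share of cells did. Clec7a was read in 6.59% of knockout cells (4.17 to 9.803) and 23.2% of APP/PS1 cells (18.6 to 28.2), and a cell with a read held 78.5 and 90.1 reads on average, so that the share of cells differed more than the level in such cells. Axl was read in 6.89% of knockout cells (4.42 to 10.2) and 19.9% of APP/PS1 cells (15.6 to 24.8), with 60.4 and 71.9 reads in such cells. For Cst7 both parts differed: 14.97% of knockout cells (11.3 to 19.3) and 24.4% of APP/PS1 cells (19.8 to 29.6), with 85.7 and 146 reads. As the background of such shares, 0.599% of the knockout cells held a read of Apoe.

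The number of activated genes read in a cell showed the same in another way. After thinning, a knockout cell held a mean of 11.7 of the 28 genes (quartiles 11, 12 and 13) and an APP/PS1 cell 13.01 (quartiles 11, 12 and 14). The lanes had means of 11.9 and 11.5 in the knockout and 12.9 and 13.1 in APP/PS1. The medians were equal and the upper ends were not: the 90th percentile was 14 genes in the knockout and 18 in APP/PS1. Cells with 15 genes or more of the list made up 7.49% of the knockout (25 of 334, exact 95% interval 4.90 to 10.9) and 22.5% of APP/PS1 (70 of 311, 18.0 to 27.6). By lane the shares were 9.70% and 5.33% in the knockout against 23.5% and 21.5% in APP/PS1, without overlap, and with all reads they were 8.38% and 24.8% for the 2 groups. The limit of 15 genes was chosen after the values were seen. Cells rich in activated genes were thus present in both groups, and the highest count was 24 genes in a knockout cell and 26 in an APP/PS1 cell.

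**Figure D3:**
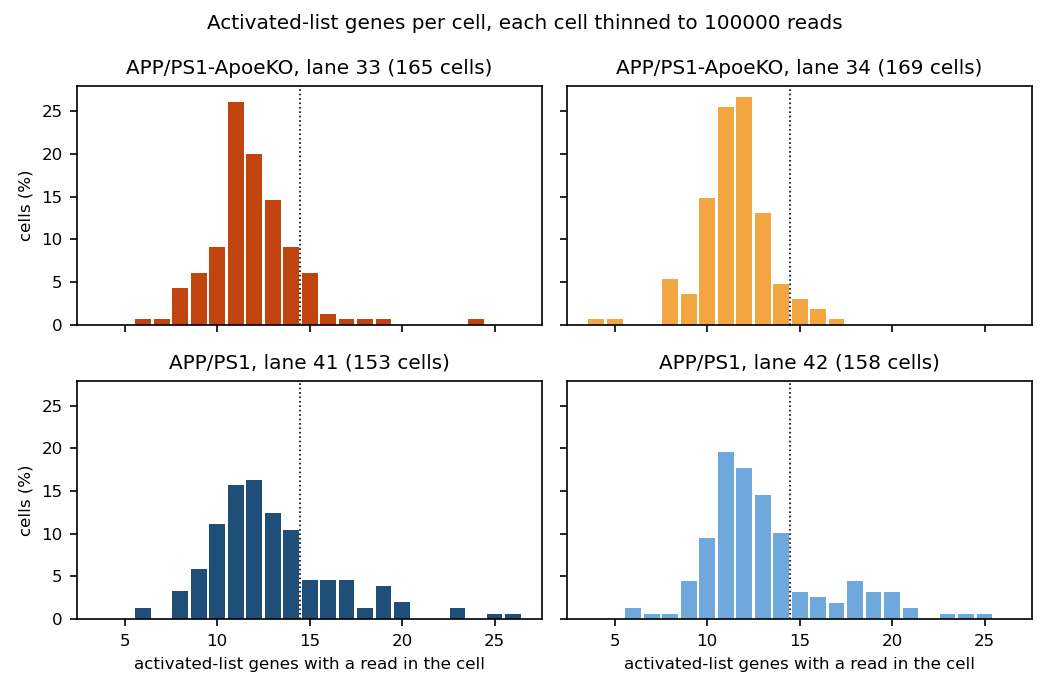
Share of cells (vertical, %) by the number of activated-list genes with a read (horizontal), 1 panel per lane, each cell thinned to 100000 reads; the dotted line marks 15 genes. All 4 lanes have their peak at 11 or 12 genes, and the tail to the right of the line holds 9.70% and 5.33% of cells in the knockout lanes against 23.5% and 21.5% in the APP/PS1 lanes.

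Nearly all homeostatic genes stayed within 2-fold. Both knockout lanes were above both APP/PS1 lanes for 11 of the 26 and below for 5, where 30.2% and 14.5% of all genes of at least 1 RPM did so. Of 26 genes, Fcrls was higher and Gpr165 lower by 2-fold or more. Each is 3.85% of the list, against 16.6% (higher) and 7.57% (lower) of all genes of at least 1 RPM. The median log2 ratio was 0.12 (-0.03 to 0.17 in the lane pairs), 0.06 below that of all genes. The purinergic receptor P2ry12 had 4591 and 5566 RPM against 4634 and 5004 RPM, Tmem119 3441 and 3877 RPM against 3805 and 3505 RPM, and the fractalkine receptor Cx3cr1 9687 and 10858 RPM against 9993 and 9542 RPM; the lanes of each overlapped, and the sign of these ratios turned with TMM. Fcrls, an Fc receptor-like gene characteristic of mouse microglia, stood apart: 1655 and 2267 RPM against 401 and 457 RPM, 4.58-fold higher (4.54 to 4.61), read in 91.02% of knockout cells (87.4 to 93.9) and 47.6% of APP/PS1 cells (41.9 to 53.3). C57BL/6-ApoeKO and C57BL/6 cortex had 2823 against 1174 RPM of Fcrls, so that APP/PS1 was below both amyloid-free groups and the amyloid knockout lay between them. The lectin Siglech (5241 and 5083 RPM against 3072 and 3119.7 RPM), the secreted Olfml3 (2339 and 2757 RPM against 1633 and 1645 RPM) and the transcription factor Maf (183 and 205 RPM against 106 and 99.2 RPM) were higher by less than 2-fold in both knockout lanes. Cystatin C, Cst3, one of the most abundant microglial transcripts, was 1.398-fold lower (42002 and 43687 RPM against 56906 and 62641 RPM), and the orphan receptor Gpr165 was 2.26-fold lower (33.5 and 17.9 RPM against 73.8 and 42.96 RPM).

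Lysosomal genes were lower by small amounts that ran through most of the list. None of the 31 was 2-fold apart in either direction, where 16.6% (higher) and 7.57% (lower) of all genes of at least 1 RPM were. Yet 15 had both knockout lanes below both APP/PS1 lanes (14.5% of all genes did) and 3 the opposite (30.2% of all genes). Of the 31, 30 had a log2 ratio below the median of all genes. The median was -0.14, or 0.33 below all genes. Set against the median of all genes, the glycolysis, MHC class I, complement and respiratory chain lists stood at -0.38, -0.31, -0.28 and -0.26. A shift of this size was therefore not particular to the lysosome list. The protease cathepsin D, Ctsd, had 6134 and 6280.1 RPM against 8843 and 9523 RPM (1.48-fold lower), cathepsin Z, Ctsz, 2703 and 2510.1 RPM against 3955 and 4082 RPM (1.54-fold lower), and cathepsin B, Ctsb, 3400.3 and 3815 RPM against 4778 and 5678 RPM (1.45-fold lower). The ganglioside-degrading subunit Hexa was 1.61-fold lower (1087 and 1068 RPM against 1675 and 1786 RPM). The proton pump subunit Atp6v1h was the 1 gene above the median of all genes, with 92.2 and 113 RPM against 62.8 and 64.5 RPM.

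Among phagocytic receptors single genes stood far apart, and the list as a whole did not. Of 19 genes Fcgr4 and Stab1 were higher and Axl and Colec12 lower by 2-fold or more, and the median was 0.06. Each direction held 10.5% of the list, against 16.6% (higher) and 7.57% (lower) of all genes of at least 1 RPM. Colec12, a scavenger receptor of the collectin family, had no read in any of the 334 knockout cells and 49.9 and 89.7 RPM in lanes 41 and 42, at least 3422-fold lower; it was read in 22.2% of APP/PS1 cells, and 0 of 334 cells allows a share of up to 0.898%. Colec12 was also at 0 in the knockout of hippocampus (0 against 67.3 RPM) and of C57BL/6 cortex (0 against 37.3 RPM). The scavenger receptor Stab1 was 2.27-fold higher (2.25 to 2.295), with 683 and 621 RPM against 250.1 and 319 RPM and no overlap. Stab1 also marks border-associated macrophages. Those 10 markers summed to 708 and 629 RPM in lanes 33 and 34 and 261 and 341 RPM in lanes 41 and 42, nearly all of it Stab1. Of the 4 measured, 3 were at least 2-fold higher, where 16.6% of all genes of at least 1 RPM were. Besides Stab1 these were Mrc1 (9.23 and 0.334 RPM against 0.0113 and 3.25 RPM) and Cbr2 (4.04 and 1.498 RPM against 0.04502 and 2.29 RPM), both low with overlapping lanes; the log2 ratio of Mrc1 lay between -0.74 and 3.34 with any 1 plate left out. Folr2 had 11.9 and 4.43 RPM against 10.5 and 16.3 RPM, and Cd163, Lyve1 and Clec10a had no read in either group. The part of these cells in the Stab1 difference was not tested. The Fc receptor Fcgr4 had 57.95 and 60.5 RPM against 29.4 and 23.1 RPM and was 2.28-fold higher (2.196 to 2.36). The apoptotic cell receptor Mertk (985 and 877 RPM against 862 and 803 RPM) and Fcgr3 (1679 and 2085 RPM against 1795 and 2049 RPM) were close to equal.

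The genes of lipid handling did not go 1 way. The 24 measured genes had a median log2 ratio of 0.0019, 0.18 below all genes. Clu was higher by 2-fold or more, and 4 genes were lower by as much, among them Fabp3, Fabp5 and Nr1h3. That is 4.17% (higher) and 16.7% (lower), against 16.6% and 7.57% of all genes of at least 1 RPM. Clu (clusterin), a lipid carrier that is also an astrocyte marker, had 8.897 and 0.0535 RPM against 0 and 0 RPM. Nearly all its reads came from 1 knockout plate: its log2 ratio of 3.27 was 0.10 without knockout plate 2, which ends the 2-fold difference. The 10 astrocyte markers summed to 283 and 391 RPM in lanes 33 and 34 and 329 and 269 RPM in lanes 41 and 42, most of it from Slc1a3. Of the 6 measured, 3 were at least 2-fold higher (50%, against 16.6% of all genes) and none lower. The 3 were Clu, Aqp4 (4.998 and 5.04 RPM against 0.135 and 0.161 RPM) and Sparcl1 (11.3 and 7.65 RPM against 5.47 and 0.905 RPM). The 10 oligodendrocyte markers summed to 185 and 181 RPM in lanes 33 and 34 and 124 and 138 RPM in lanes 41 and 42, led by Cnp. The part of these cells in the results was not tested. The cholesterol exporters were higher: Abca1 had 773 and 792 RPM in lanes 33 and 34 and 445 and 472 RPM in lanes 41 and 42 and was 1.71-fold higher (1.69 to 1.72). Abcg1 had 301 and 351 RPM against 201 and 174 RPM and was 1.75-fold higher (1.73 to 1.77). Both genes kept their lanes apart. Lrp1, an endocytic receptor for ApoE, was 1.69-fold higher (999 and 773 RPM against 492 and 551 RPM). Fabp3, a fatty acid carrier like Fabp5, had 0.571 and 0 RPM against 2.44 and 4.17 RPM. Nr1h2, which encodes the sterol sensor LXR-beta that controls both exporters, stood at 79.4 and 75.6 RPM against 90.4 and 65.3 RPM, its relative Nr1h3 (LXR-alpha) at 0.643 and 0.0669 RPM against 2.33 and 1.52 RPM, and their target Mylip at 241 and 265 RPM against 206 and 216 RPM. Apoc1, next to Apoe on chromosome 7, had no read in the knockout and 1.09 RPM in APP/PS1. In the 20 cholesterol synthesis genes the median was 0.19, the same as for all genes. At least 2-fold higher were 3 (Mvk, Acat2 and Hsd17b7) and lower was 1, the master regulator Srebf2 (4.38 and 19.01 RPM against 38.1 and 28.1 RPM). That is 15% and 5%, no more than the 16.6% and 7.57% of all genes of at least 1 RPM.

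The antigen presentation genes split within the MHC class II list. The invariant chain Cd74 had 19.9 and 22.4 RPM in the knockout lanes and 314 and 146 RPM in lanes 41 and 42 and was 10.6-fold lower (10.2 to 11.03). It was read in 12.6% of knockout cells (9.22 to 16.6) and 29.9% of APP/PS1 cells (24.9 to 35.3), and a cell with a read held 17 and 73.4 reads on average, so that both the share of cells and the level in them were lower. The classical class II chains H2-Aa (1.1996 and 0.0802 RPM against 42.3 and 7.58 RPM) and H2-Eb1 (1.54 and 1.48 RPM against 63.6 and 15.3 RPM) were also lower in both knockout lanes. They came from few cells: 3.86% of APP/PS1 cells (12 of 311) and 0.898% of knockout cells (3 of 334) held at least 5 of the 9 genes, and 11 of those 12 APP/PS1 cells were of lane 41. With all reads the shares were 4.502% and 2.69%, and lane 42 (1.899%) was then below lane 33 (3.64%). The log2 ratio of H2-Aa, -4.45, lay between -5.44 and -3.91 with any 1 plate left out. The peptide exchange factors of the pathway went the other way: H2-DMa had 318 and 237 RPM against 151 and 153 RPM (1.82-fold higher) and H2-DMb2 18.7 and 16.97 RPM against 7.36 and 4.85 RPM (2.95-fold higher). H2-DMb1 (102 and 76.6 RPM against 78.2 and 98.9 RPM) and H2-Ob (88.7 and 105 RPM against 85.1 and 101 RPM) were near equal. Of the 15 MHC class I genes none was 2-fold apart, where 16.6% (higher) and 7.57% (lower) of all genes of at least 1 RPM were. B2m, the common light chain, had 4209.8 and 4779 RPM against 3611 and 3688 RPM, and H2-D1 992 and 1032 RPM against 1239.9 and 1216 RPM. Class I and class II genes are near-identical in parts, and H2-DMb1 and H2-DMb2 are close copies, so reads can be shared among them.

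Interferon-response genes were higher. Among the 27 measured, 12 were higher by 2-fold or more (44.4%, against 16.6% of all genes) and 1 was lower by as much (3.70%, against 7.57%). Both knockout lanes were above both APP/PS1 lanes for 14 and below for 1, where 30.2% and 14.5% of all genes did so. The median log2 ratio was 0.71 (0.32 to 0.78 in the lane pairs), 0.53 above that of all genes. It was 0.45 when each cell was weighted equally and 0.43 with thinned cells. Bst2 (tetherin), which ties new virus particles to the membrane they leave, had 88.5 and 93.8 RPM against 17.1 and 13.8 RPM and was 5.95-fold higher (5.71 to 6.19); it was read in 38.6% of knockout cells (33.4 to 44.1) and 20.6% of APP/PS1 cells (16.2 to 25.5). Slfn2, a Schlafen gene, had 45.8 and 31.6 RPM against 14.3 and 13.7 RPM (2.75-fold higher), and Parp14, an ADP-ribosyltransferase, 73.4 and 60.5 RPM against 29.3 and 18.996 RPM (2.796-fold higher). Trim30d, a TRIM family gene, had 27.2 and 48.7 RPM against 0 and 1.83 RPM and was 39.6-fold higher (34.2 to 46.2). These were the 4 genes of the list at least 2-fold higher in all 4 lane pairs with a read in at least 10% of cells. The signal transducer Stat2 (38.7 and 77.6 RPM against 31.2 and 26.9 RPM) was above in both knockout lanes as well. Typical members of the response differed little: Isg15 was low in every lane (2.01 and 1.94 RPM against 1.62 and 1.35 RPM) and Oasl2 had overlapping lanes (15.04 and 12.8 RPM against 17.4 and 14.9 RPM). The 1 gene at least 2-fold lower, Ifi44, was 9.97-fold lower (4.27 and 0 RPM against 9.76 and 30.3 RPM). Rsad2 (viperin) had 17.7 and 5.51 RPM against 0.0225 and 0 RPM, from 2 reads in all in APP/PS1, and was 1072-fold higher (296 to 8861); its log2 ratio of 4.54 lay between 3.90 and 4.93 with any 1 plate left out. A knockout cell held a mean of 3.16 of the 27 genes and an APP/PS1 cell 2.33, and cells with at least 14 were rare in both (5 of 334 and 3 of 311, or 5 and 6 with all reads).

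The letters upstream of these genes show what they share and what they do not. Interferon-responsive promoters often hold the element GAAANNGAAA, searched here on both strands in the 300 bases of each RefSeq promoter (250 before and 50 after the start, GRCm38.p6). It was found in 12 of the 19 interferon genes with a matched promoter (63.2%) and in 3.99% of all 27025 promoters, but in 7 of 94 matched genes of the 132 higher ones and in 1 of 36 of the 54 lower ones. The 30 bases around 1 match in each of 5 genes follow, with the match in capitals (TTTCNNTTTC is the same element on the other strand), read 5′ to 3′ on the strand of the gene.
Bst2, chr8:71537583-71537612, minus strand: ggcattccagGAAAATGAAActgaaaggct
Trim30d, chr7:104507871-104507900, minus strand: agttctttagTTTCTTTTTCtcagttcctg
Trim30a, chr7:104465210-104465239, minus strand: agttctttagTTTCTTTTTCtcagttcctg
Stat2, chr10:128270266-128270295, plus strand: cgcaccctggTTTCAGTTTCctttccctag
Rsad2, chr12:26456553-26456582, minus strand: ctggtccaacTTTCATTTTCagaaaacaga
The 5 genes shown were all higher in the knockout sum. The element was also found in Isg15 (log2 ratio 0.32) and in Ifit1, which was lower (-0.61). The stretches of the neighbouring paralogs Trim30d and Trim30a are the same in all 30 bases. Their levels were not alike: Trim30a had 137 and 174 RPM against 143 and 119 RPM and was 1.19-fold higher, next to 39.6-fold higher for Trim30d. The 2 genes are close copies and can share reads, so the split of reads between them is uncertain, and a match of letters shows neither a bound site nor a cause.

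The cytokine and chemokine list had members far apart in both directions and a median near 0 (-0.06, between -0.32 and 0.56 in the lane pairs). The chemokine Ccl9 had 135 and 153 RPM against 44.2 and 46.7 RPM and was 3.17-fold higher (3.09 to 3.25). Ccl12 had 39.4 and 46.1 RPM against 17.4 and 10.3 RPM and was 3.13-fold higher (2.99 to 3.28), and both were at least 2-fold higher in all 4 lane pairs. Il6 had 18.97 and 26.8 RPM against 7.26 and 6.55 RPM. Interleukin-1 beta, Il1b, was 15.998-fold lower (3.04 and 0.682 RPM against 44.3 and 15.7 RPM) and rested on few cells, 1.20% of the knockout and 2.89% of APP/PS1; its log2 ratio of -3.67 lay between -4.62 and -2.63 with any 1 plate left out. Ccl4 (13.4 and 10.2 RPM against 41.98 and 22.96 RPM) and the membrane-bound chemokine Cxcl16 (75.6 and 98.6 RPM against 164 and 152 RPM) were lower in both knockout lanes. In hippocampus Ccl4 went the other way (60.4 against 11.6 RPM). Tnf was low and overlapping (6.798 and 3.53 RPM against 4.54 and 6.05 RPM). Of the 14 NF-kB feedback genes 1 was 2-fold higher, the ubiquitin editor Tnfaip3 (60.6 and 53.4 RPM against 27.1 and 26.1 RPM), and none lower. That is 7.14% higher and 0% lower, against 16.6% and 7.57% of all genes of at least 1 RPM. The 3 chains of complement C1q differed by less than 1.5-fold. C1qa had 4961 and 4937 RPM against 5058 and 5517 RPM, C1qb 8248 and 8882 RPM against 6831 and 7625 RPM, and C1qc 3669 and 4036 RPM against 3723 and 4047 RPM. Of the 11 complement genes those at least 2-fold lower were Itgax and C4b (5.198 and 2.19 RPM against 14.05 and 8.31 RPM). They made up 18.2% of the list, against 7.57% of all genes of at least 1 RPM. None was higher by as much, where 16.6% of all such genes were.

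Among the genes of the Trem2 chain and of Alzheimer risk loci a few were far higher. Of 23 genes 5 (21.7%) passed 2-fold upwards and none downwards, against 16.6% and 7.57% of all genes of at least 1 RPM. Both knockout lanes were above for 15 and below for 3, where 30.2% and 14.5% of all such genes did so, and the median was 0.36 (0.22 to 0.53), 0.17 above all genes. Sorl1, a sorting receptor that retrieves the amyloid precursor from endosomes, had 77.3 and 55.6 RPM in lanes 33 and 34 and 7.78 and 5.91 RPM in lanes 41 and 42 and was 9.73-fold higher (9.18 to 10.3). It was read in 20.96% of knockout cells (16.7 to 25.7) and 7.07% of APP/PS1 cells (4.49 to 10.5). The membrane-spanning genes Ms4a6b and Ms4a6c, close copies that lie 34.3 kb apart on chromosome 19, were both at least 2-fold higher in all 4 lane pairs. Ms4a6b had 107 and 88.1 RPM against 26.2 and 30.6 RPM, and Ms4a6c 39.4 and 33.2 RPM against 8.46 and 4.103 RPM. Their relative Ms4a6d, above in both lanes by less than 2-fold, had 136 and 186 RPM against 121 and 124 RPM. Other genes of the list were above in both lanes by less than 2-fold, among them the following. The inhibitory receptor Cd33 had 1725 and 1609 RPM against 1139 and 1038 RPM, and the endocytic adaptor Picalm 359 and 360.1 RPM against 227 and 225 RPM. The phosphatase Inpp5d, which opposes signals downstream of Trem2, had 1327 and 1389 RPM against 1038 and 1079.5 RPM, and the integrin adaptor Apbb1ip 250.2 and 271 RPM against 135 and 165 RPM. Trem2, Tyrobp and Syk (133 and 92.8 RPM against 163 and 139.6 RPM), the receptor, its adaptor and the kinase that follows, were the 3 genes lower in both lanes. The transcription factor Spi1 and the membrane-bending Bin1 had overlapping lanes.

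Of the remaining lists, TGF-beta signalling, which maintains the resting state of microglia, had a median of 0.33 (0.23 to 0.40), 0.14 above that of all genes. Both knockout lanes were above for 6 of 14 genes and below for none, beside 30.2% and 14.5% of all genes. At least 2-fold lower was 1 gene (7.14%, against 7.57% of all genes of at least 1 RPM). None was higher by as much, where 16.6% of all such genes were. The ratio was negative for 5 of the 14, and 8 lay above the median of all genes. Of those above in both lanes, the receptor Tgfbr1 had 1217 and 1192 RPM against 815 and 853 RPM. The feedback repressor Skil had 169 and 181 RPM against 90.8 and 90.4 RPM, and Ski 283 and 234 RPM against 172 and 157 RPM. The activating integrin Itgav had 96.2 and 96.9 RPM against 63.7 and 44.8 RPM. Immediate early and stress genes had a median of -0.08, and Junb, a subunit of the AP-1 factor, was the 1 such gene at least 2-fold higher in the 4 lane pairs with a read in 10% of cells. It had 164 and 179 RPM against 63.9 and 54.9 RPM and was 2.896-fold higher (2.83 to 2.96). Fos had 0.00691 and 0.0106 RPM in the knockout and APP/PS1 sums. Among glycolysis genes (median -0.20) the enzyme Tpi1 was 2.03-fold lower (98.6 and 151 RPM against 253 and 258 RPM). None of the 26 respiratory chain genes was 2-fold apart (median -0.07), where 16.6% (higher) and 7.57% (lower) of all genes were. The 16 cell cycle genes lay around a median of 0.14, from -0.36 to 0.30 in the lane pairs, and Mki67 had 17.4 and 0 RPM against 1.25 and 1.15 RPM, with a log2 ratio of -1.32 when the richest cell of each group was left out. The signs of the homeostatic, lipid, cholesterol synthesis, NF-kB, phagocytic and cell cycle medians turned under TMM.

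**Figure D4:**
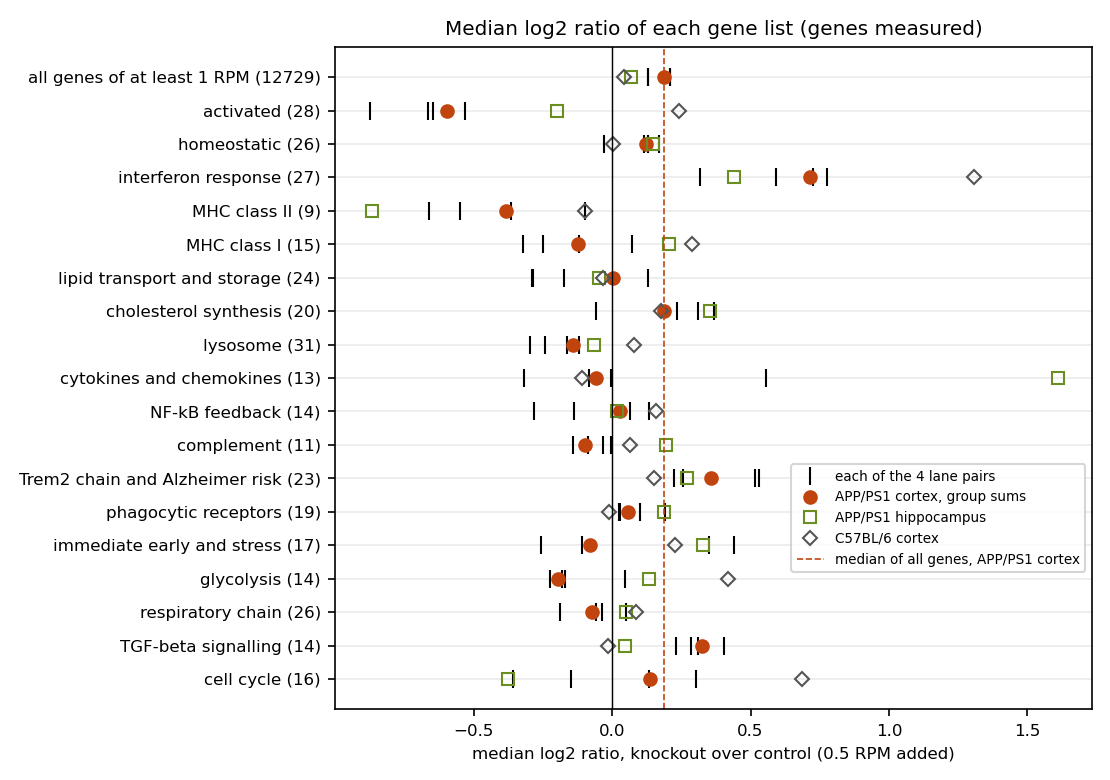
Median log2 ratio, knockout over control, with 0.5 RPM added (horizontal), for each gene list (number of genes measured in brackets): filled circles for the APP/PS1 cortex sums, ticks for its 4 lane pairs, squares for APP/PS1 hippocampus and diamonds for C57BL/6 cortex; the dashed line is the 0.19 of all genes. The activated list lies at -0.60, -0.20 and 0.24 in the 3 comparisons and the interferon list at 0.71, 0.44 and 1.31.

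The genes farthest apart were mostly not of the lists. Of the 132 higher and 54 lower genes of the 4 lane pairs, 114 and 50 were of a kind that was named; predicted genes (Gm and Rik names), genes whose names mark a pseudogene, mitochondrial genes and spike-ins were left out of the ranking. By the log2 ratio of the sums, the 15 highest of the 114 were Trim12a, Ets1, Mrc2, Tfrc, Clgn, Hpgd, Trim30d, Fblim1, Scoc, Ndst1, Cd276, Sorl1, Cep85, Endod1 and Rab32. Tfrc, the transferrin receptor through which cells take up iron, had 495 and 558 RPM in lanes 33 and 34 and 12.3 and 4.37 RPM in lanes 41 and 42 and was 64.9-fold higher (61.7 to 68.3). It was read in 18.6% of knockout cells (14.5 to 23.2) and 3.22% of APP/PS1 cells (1.55 to 5.83). In hippocampus the 2 groups had 144 against 8.88 RPM and in C57BL/6 cortex 12.4 against 11.9 RPM, so that the C57BL/6 knockout did not share the difference. Hpgd, which degrades prostaglandins, had 405 and 526 RPM against 19.8 and 4.19 RPM, 40.5-fold higher (38.8 to 42.3), and was read in 65.9% of knockout cells (60.5 to 70.9) and 2.89% of APP/PS1 cells (1.33 to 5.42). The hippocampus (491 against 13.4 RPM) and C57BL/6 cortex (431 against 45.5 RPM) differed the same way. Scoc, a Golgi and autophagy gene, had 163 and 168 RPM against 6.02 and 11.002 RPM, with 166 against 8.25 RPM in hippocampus and 198 against 15.2 RPM in C57BL/6 cortex. Its neighbour Clgn, a chaperone gene best known from testis, lies 1.5 kb away on chromosome 8, had 15.7 and 37.2 RPM against no read, and was at least 1681-fold higher. Rab32, a GTPase of lysosome-related organelles, had 79.8 and 113 RPM against 14.2 and 10.6 RPM (7.895-fold higher).

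For Trim12a, a TRIM gene of a family of close copies, the knockout lanes had 36.4 and 51.9 RPM and the APP/PS1 lanes 0.0113 and 0.0101 RPM, which is 2 reads in all; it was 4180.1-fold higher (1157 to 34524). The transcription factor Ets1 had 55.8 and 68.5 RPM against 0.383 and 0.191 RPM, but C57BL/6 cortex, with intact Apoe, had 36.4 RPM. Mrc2, an endocytic collagen receptor, had 36.3 and 40.8 RPM against no read in APP/PS1 and was at least 2423-fold higher; C57BL/6 cortex had 20.2 RPM. Endod1 had 45.9 and 65.6 RPM against 11.5 and 2.79 RPM, and 68.3 against 68.4 RPM in C57BL/6-ApoeKO and C57BL/6. For Ets1, Mrc2 and Endod1 the APP/PS1 cells were therefore the lowest of the 4 cortex groups.

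Of the 15 lowest of the 50 named lower genes, ranked with the same kinds left out, 14 were Apoe, Colec12, Rps3a3, Adgrg5, Slfn9, Etl4, Hbegf, Perp, Cd74, Plekhh2, Fhad1, Slc26a11, Cacna1a and Itgax. Hbegf, a growth factor of the EGF family, had 2.61 and 4.81 RPM against 90.5 and 136 RPM and was 30.6-fold lower (28.1 to 33.4); it was 7.81 against 109 RPM in hippocampus and 7.62 against 53.8 RPM in C57BL/6 cortex. Adgrg5, an adhesion G protein-coupled receptor, had 0 and 0.0669 RPM against 32.8 and 34.1 RPM. The calcium channel gene Cacna1a, best known from neurons, had 0.771 and 9.79 RPM against 37.5 and 44.3 RPM. Of the 10 neuronal markers 6 were below 1 RPM in both groups, and the list summed to 17.7 and 72.2 RPM in lanes 33 and 34 and 38.4 and 43.2 RPM in lanes 41 and 42, led by Camk2a; their part in these results was not tested. Slfn9 had 1.47 and 0.0401 RPM against 35.4 and 50.5 RPM, while its family member Slfn2, 73.3 kb away on chromosome 11, was higher. Rps3a3 had 0.214 and 0.147 RPM against 72.9 and 102 RPM and is annotated as a processed pseudogene. Rps3a1, the ribosomal gene it copies, was higher (215 and 194 RPM against 55.98 and 83.6 RPM), so the assignment of reads between this pair is uncertain.

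**Figure D5:**
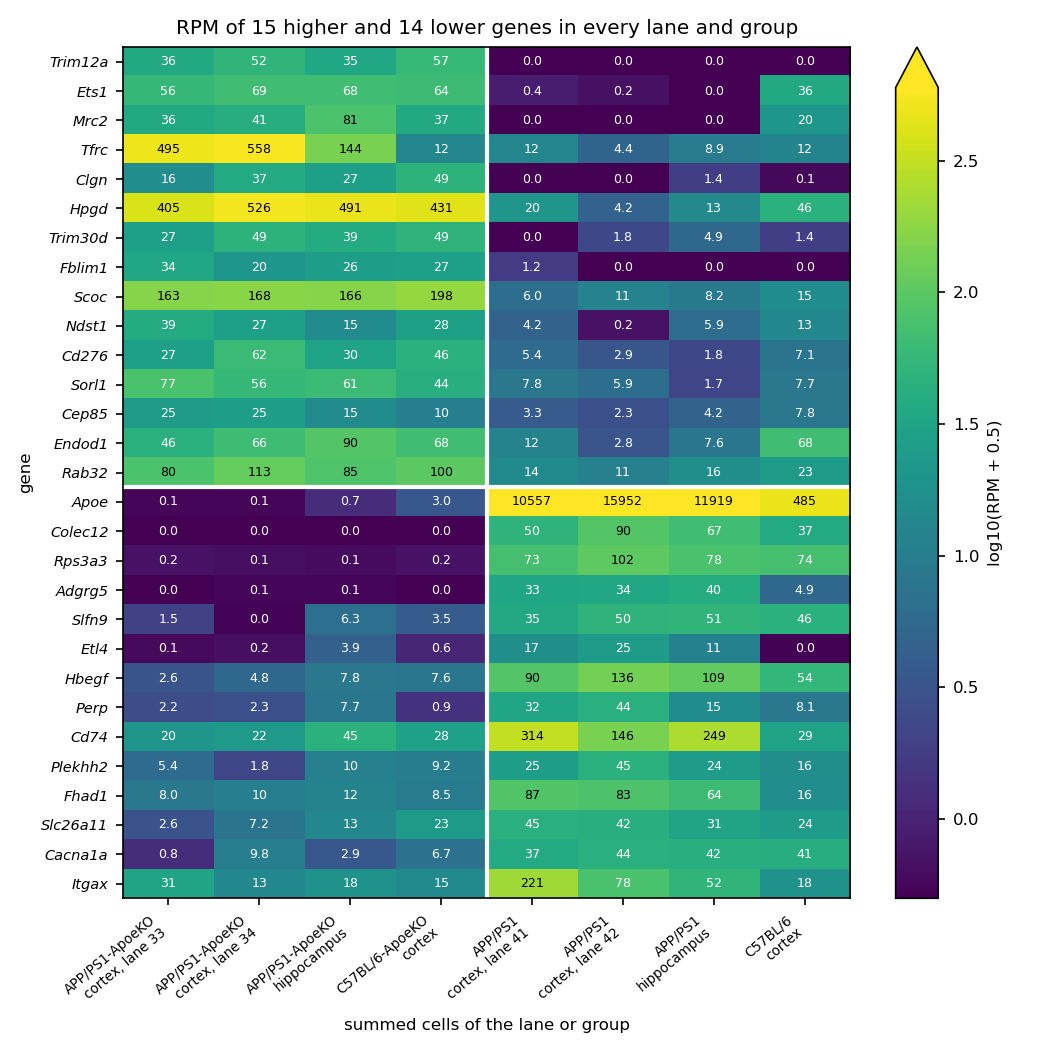
RPM of the 15 higher genes and 14 of the lower genes (rows) in the 4 cortex lanes and the 4 other groups (columns, the 4 knockout columns at left), with the value printed in each cell and colour as log10 of RPM plus 0.5. The hippocampus columns resemble the cortex columns of the same genotype for nearly all genes, and for Ets1, Mrc2, Endod1, Etl4, Cd74 and Itgax, among others, the C57BL/6 column at right is nearer to the knockout lanes than to APP/PS1.

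Most of these differences were also present in the other tissue. Of the 15 higher genes 15 were at least 2-fold higher in the knockout of hippocampus and 10 in that of C57BL/6 cortex, and of the 15 lower genes 14 and 9 were lower there. For all 132 higher genes the counts were 73 and 36, and for the 54 lower genes 36 and 21. Of all 6127 genes, 4.39% were at least 2-fold higher and 2.6% lower in the knockout of hippocampus, and 2.71% higher and 1.86% lower in that of C57BL/6 cortex. The APP/PS1 hippocampus cells were sequenced in lanes 41 and 42 together with the APP/PS1 cortex cells, and the labels do not say whether the tissues share animals. Where the level of C57BL/6 cortex lay on the log2 scale was split: it was nearer to the amyloid knockout for 74 of the 132 higher genes and nearer to APP/PS1 for 58, and for the 54 lower genes it was nearer to the knockout for 24 and to APP/PS1 for 30. The activated genes were among those that differed between comparisons. Cst7 had 61.6 against 5.65 RPM in C57BL/6-ApoeKO and C57BL/6, Clec7a 32.5 against 16.8 RPM and Ank 18.1 against 10.8 RPM, each higher in the knockout without amyloid and lower in the knockout with amyloid. In hippocampus Itgax (18.5 against 51.5 RPM) and Ank (24.8 against 79.8 RPM) were lower in the knockout, whereas Clec7a (61.9 against 71.02 RPM) and Axl (60.3 against 60.5 RPM) were near equal. These differences between comparisons were not tested.

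The genes apart in the 4 lane pairs were also counted by distance to Apoe. Within 1 Mb of it 12 genes were considered and 0 were apart, and within 5 Mb 1 of 30 was (Zfp111, higher). Of 79 genes within 10 Mb, 1 was higher and 1 lower, and of 129 within 20 Mb, 4 were higher and 1 lower. With 3.02% of all considered genes apart, the 1 Mb and 5 Mb windows hold too few genes to show whether such genes gather there. Genes below 20 RPM, such as Apoc1, were not considered. The adjoining Tomm40 had 46.5 and 43.01 RPM against 38.8 and 37.9 RPM and Nectin2 36.1 and 46.7 RPM against 36.02 and 37.2 RPM. By chromosome the share of genes apart was 6.57% on chromosome 3, 6.09% on chromosome 9 and 4.73% on chromosome 8, against 3.02% of all 6020 considered genes with coordinates. Of the 182 genes apart with coordinates, 23 lay in 13 pairs closer than 100 kb, 11 of them in the same direction. Each pair of the Nlrp1 genes below is among them. The number of such pairs among all considered genes was not computed, so this count does not show that the genes gather. On chromosome 11 a cluster of inflammasome sensor genes was higher together. Nlrp1a had 28.9 and 36.3 RPM against 7.29 and 4.998 RPM, Nlrp1b 59.9 and 67.1 RPM against 28.995 and 21.4 RPM, and the pseudogene Nlrp1c-ps 113 and 124 RPM against 17.7 and 9.47 RPM. These are close copies of each other, so their reads may be shared. The other such pairs include Clgn with Scoc and Ms4a6c with Ms4a6b, given above. Itgax lay 54.8 kb from Cox6a2, which was also lower. Overlapping genes can share reads too, since the labels used do not state how overlaps and strand were counted.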

How the data were processed

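The deposited table holds read counts per gene for each sorted cell, whole numbers that are not normalized, with 29474 genes and 1878 cells. Per the submitters' processing notes, the authors worked on the mm10 build with featureCounts 1.5.1, STAR 2.5.2 and Seurat 2.3.1; the sources used here do not give how strand, overlapping genes and multiply mapped reads were counted. Lanes were taken from the labels and from the deposited metadata of the cells, which matched for 645 of 645 cells. No cell was left out, no 2 cells were identical (highest correlation of 2 cells 0.614), and no clustering or doublet caller was run.

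Counts were summed by group and by lane and divided by the total (RPM). Ratios carry exact conditional binomial 95% intervals. A group without a read was set to a floor of 3 reads per group, 0.0207 RPM in the knockout and 0.0159 RPM in APP/PS1, and the fold is then written as at least. Log2 ratios had 0.5 RPM added. A gene was called at a ratio of 2 between sums, among those with 20 RPM and a read in 10% of cells in 1 group. List genes needed a mean of 1 RPM; of 458 genes in 29 lists 454 were in the table. Shares of cells and genes per cell used cells thinned to 100000 reads, and no cell was shallower. Coordinates come from GENCODE vM21 on GRCm38 and promoters from RefSeq.

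Named were members of the lists and the 15 genes with the largest ratio in each direction. The latter were ranked among those at least 2-fold apart in all 4 lane pairs. This ranking left out predicted genes (Gm and Rik names), names of pseudogenes, mitochondrial genes and spike-ins, but not list members. The examples among list members and cell type markers were chosen after their values were seen. So were Nlrp1a, Nlrp1b, Nlrp1c-ps, Zfp111, Cox6a2, Rps3a1, Tomm40 and Nectin2. The lists and the comparison were chosen with earlier results of these data known. The alternatives are those given under the dependence on processing. The ratios, their intervals and the 2-fold cut between sums were checked on simulated sums with set ratios and counting error only. Cells, lanes and animals were not simulated, so the rule of 4 lane pairs and the share of cells were not tested. Tools were python 3.11.15, numpy 2.4.6, pandas 2.3.3, scipy 1.17.1, matplotlib 3.10.9, R 4.3.3 and edgeR 4.0.16, the last for TMM factors only. Values of some single genes are not reported here; the counts and medians of lists include them.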

Additional observations from a re-analysis of the deposited data

Results flagged for a closer look

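Several values in C57BL/6 cortex, without amyloid, had the opposite sign to APP/PS1 cortex, in all 4 lane pairs of the latter; these differences were not tested. The median log2 ratio of the activated list was 0.24 there against -0.60, that of the lysosome list 0.0798 against -0.14, and that of the TGF-beta list -0.0141 against 0.33. The complement list had 0.0658 in C57BL/6 cortex and 0.19 in hippocampus against -0.10. The phagocytic receptors had -0.0119 against 0.06, but both lay below the medians of all genes (0.042 and 0.19). With TMM that 0.06 became -0.14. Among single genes, Cst7 had a log2 ratio of 3.34 in C57BL/6 cortex against -1.54 with amyloid, Clec7a 0.93 against -2.02 and Ank 0.72 against -2.51. Endod1 was near equal in C57BL/6 cortex, at -0.0028 against 2.93. Etl4 was at 1.06 against -5.07, with 0.579 against 0.0166 RPM in C57BL/6-ApoeKO and C57BL/6, both low next to the 16.5 and 24.9 RPM of lanes 41 and 42.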

How the results depend on the processing

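With TMM factors 207 genes were at least 2-fold higher, 202 lower and 82 lower in all 4 lane pairs; the median of all genes was -0.0088, and those of the activated, homeostatic, lipid, Trem2 and risk, and lysosome lists were -0.80, -0.0797, -0.20, 0.16 and -0.34. With 1 RPM as the only filter 2614 genes were higher and 1240 lower, 932 and 433 of them in all 4 lane pairs. With knockout lane 34 alone 193 genes were lower, and the activated and lipid medians were -0.75 and -0.29. With lane 33 alone 215 genes were lower, and the medians of all genes and of the homeostatic and lysosome lists were 0.10, 0.0325 and -0.28. With 5 RPM added the median of all genes was 0.14. The interferon median was 0.45 with cells weighted equally and 0.43 with thinned cells, and the activated genes per APP/PS1 cell had a mean of 13.3 with all reads. With each of the 4 titled plates of a group left out in turn, 417 to 445 genes were higher and 127 to 153 lower, the lipid median lay between -0.24 (without knockout plate 1) and 0.0121, and the Trem2 and risk median between 0.30 and 0.58 (without APP/PS1 plate 1). The cause of these shifts was not tested. Of 138 named genes 45 were at least 2-fold apart in all 4 lane pairs. The group sums of these 45 stayed at least 2-fold apart in all 18 settings, but only named genes were followed this way. A change of sign in a setting was seen for 20 named genes, none of them among these 45. Of the 33 other named genes with a log2 ratio beyond 1 or -1, 22 came within it in a setting: Acat2, Aqp4, C4b, Ccl4, Ccr2, Clu, Cybb, Fabp3, Fcgr4, Gpr165, Hsd17b7, Igf1, Mki67, Mrc1, Mvk, Nr1h3, Sparcl1, Srebf2, Stab1, Stat2, Tnfaip3 and Tpi1. Mki67 was at -1.76 without knockout plate 2. Of 2484 values of named genes 260 moved by more than 1 SD of the 4 lane pairs, and of 792 shares of cells 73 left the main interval. No paired analysis was possible because a group is 1 sample and the well codes shared by groups name only plate positions. Genotype, lane and age stay joined in every setting.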
